A study of Mus musculus with 14 samples.

Results

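The 10 Polycomb repressor genes Ezh1, Ezh2, Eed, Suz12, Jarid2, Mtf2, Phc1, Cbx7, Rnf2 and Bmi1, of 22026 genes listed, were read across 4 RNA libraries of mouse tail fibroblast cultures. The genes were picked by name as subunits of the Polycomb complexes, and all 10 were found under those names. The RNA libraries were AID-null cells after 3 weeks of reprogramming, untreated AID-null fibroblasts, wildtype cells after 3 weeks of reprogramming and untreated wildtype fibroblasts, with 1 library each. Reprogramming was by ectopic expression of Oct4, Sox2, Klf4 and cMyc in all reprogrammed cultures. AID is a cytidine deaminase of activated B cells, and the study's title places it in the removal of epigenetic memory. CpG methylation came from reduced representation bisulfite sequencing (RRBS), an assay of CpG-rich DNA near restriction sites, in the same 4 kinds of culture and in 3 clones per genotype that had been picked at 2 weeks and were taken after 3 weeks. The labels give neither the allele of the AID-null cells, nor the age and number of animals, nor how the factors were delivered, nor whether clones came from separate cultures, so p-values between clones measure the spread between these clones.

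Polycomb proteins keep developmental genes silent. Polycomb repressive complex 2 (PRC2) puts methyl groups on lysine 27 of histone H3, and Polycomb repressive complex 1 (PRC1) puts ubiquitin on histone H2A and compacts chromatin. In pluripotent cells both complexes sit mostly at unmethylated CpG-rich promoters of lineage regulators.

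Genotypes are given here as labelled, and every direction between genotypes below is one between labels. FPKM counts fragments per kilobase of transcript and is set relative to the size of the library. The Y-linked genes Eif2s3y and Ddx3y were listed at 184 to 274 FPKM and 135 to 181 FPKM in the AID-null-labelled libraries and at 0 in the wildtype-labelled ones. Xist was listed at 0.99 to 1.78 FPKM in the AID-null-labelled and 149 to 456 FPKM in the wildtype-labelled libraries. Genotype label and sex chromosomes therefore cannot be told apart. Markers of pluripotent cells summed to 6796 and 7194 FPKM in the 3-week libraries labelled AID-null and wildtype. In the fibroblasts with those labels they summed to 7.99 and 4.53 FPKM, with 5 and 7 of the 10 markers at 0. Dppa5a was the largest part of both 3-week sums, at 3264 and 3160 FPKM. Single markers differed more than the sums. In the AID-null-labelled against the wildtype-labelled 3-week library, Esrrb was listed at 174 against 414 FPKM. Dppa2 was at 38.01 against 133 FPKM and Sall4 at 76.7 against 223 FPKM, so that all of these differed by more than 2-fold. The other 7 markers differed by less than 2-fold between these libraries.

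Promoter sequences of 4 members are shown because they are CpG-rich and nearly free of methylation in all 10 RRBS libraries, while the RNA of these genes differed widely. They are RefSeq sequences of build GRCm38.p6, from 250 bases before to 50 bases after the start of the gene, 5′ to 3′. Capitals mark CpGs that were read in all 10 libraries.
Ezh2 promoter, chr6:47594981-47595280, - strand: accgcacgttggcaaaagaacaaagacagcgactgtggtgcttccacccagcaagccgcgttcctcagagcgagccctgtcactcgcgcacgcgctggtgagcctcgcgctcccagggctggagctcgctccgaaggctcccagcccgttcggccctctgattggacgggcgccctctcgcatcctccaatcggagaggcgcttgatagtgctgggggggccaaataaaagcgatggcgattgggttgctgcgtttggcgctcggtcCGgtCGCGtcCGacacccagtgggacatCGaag
Jarid2 promoter, chr13:44730524-44730823, + strand: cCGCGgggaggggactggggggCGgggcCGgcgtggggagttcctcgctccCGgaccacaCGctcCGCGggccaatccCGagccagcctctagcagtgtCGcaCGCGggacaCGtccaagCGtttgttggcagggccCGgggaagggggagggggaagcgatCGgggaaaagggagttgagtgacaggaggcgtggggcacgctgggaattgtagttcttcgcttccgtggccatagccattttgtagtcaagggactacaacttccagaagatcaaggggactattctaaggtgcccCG
Cbx7 promoter, chr15:79932597-79932896, - strand: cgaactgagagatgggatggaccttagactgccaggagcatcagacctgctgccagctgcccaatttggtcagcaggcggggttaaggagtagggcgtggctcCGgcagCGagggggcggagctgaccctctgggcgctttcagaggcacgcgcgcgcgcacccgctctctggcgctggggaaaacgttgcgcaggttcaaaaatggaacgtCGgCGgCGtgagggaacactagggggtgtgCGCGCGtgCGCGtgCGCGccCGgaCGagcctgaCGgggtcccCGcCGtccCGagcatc
Bmi1 promoter, chr2:18676768-18677067, + strand: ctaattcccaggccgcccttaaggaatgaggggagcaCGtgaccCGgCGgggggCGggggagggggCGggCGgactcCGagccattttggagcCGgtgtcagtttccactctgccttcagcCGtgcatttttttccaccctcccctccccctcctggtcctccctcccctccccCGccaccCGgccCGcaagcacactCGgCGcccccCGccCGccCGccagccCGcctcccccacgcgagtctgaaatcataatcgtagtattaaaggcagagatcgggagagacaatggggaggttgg

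Of the 10 members, 8 were at least 2-fold higher at 3 weeks than in fibroblasts in the AID-null-labelled pair, against 21.3% of 15076 genes, and 1 was at least 2-fold lower, against 17.6%. Under the wildtype label 7 were at least 2-fold higher, against 27.0% of 15196 genes, and 0 were lower, against 17.7%. The fold is on the log2(FPKM + 1) scale, and a gene was counted where 1 or both libraries reached 1 FPKM. The median difference of the members was 2.07 under the AID-null label, where that of all genes was -0.05, and 2.68 under the wildtype label, where that of all genes was 0.16. With 1 library per group no difference in RNA had a test. In bulk cultures, fewer cells of a type and less RNA per cell cannot be told apart. The 10 members summed to 2124 and 660 FPKM at 3 weeks and in fibroblasts under the AID-null label, and to 2708 and 648 FPKM under the wildtype label.

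**Figure D1:**
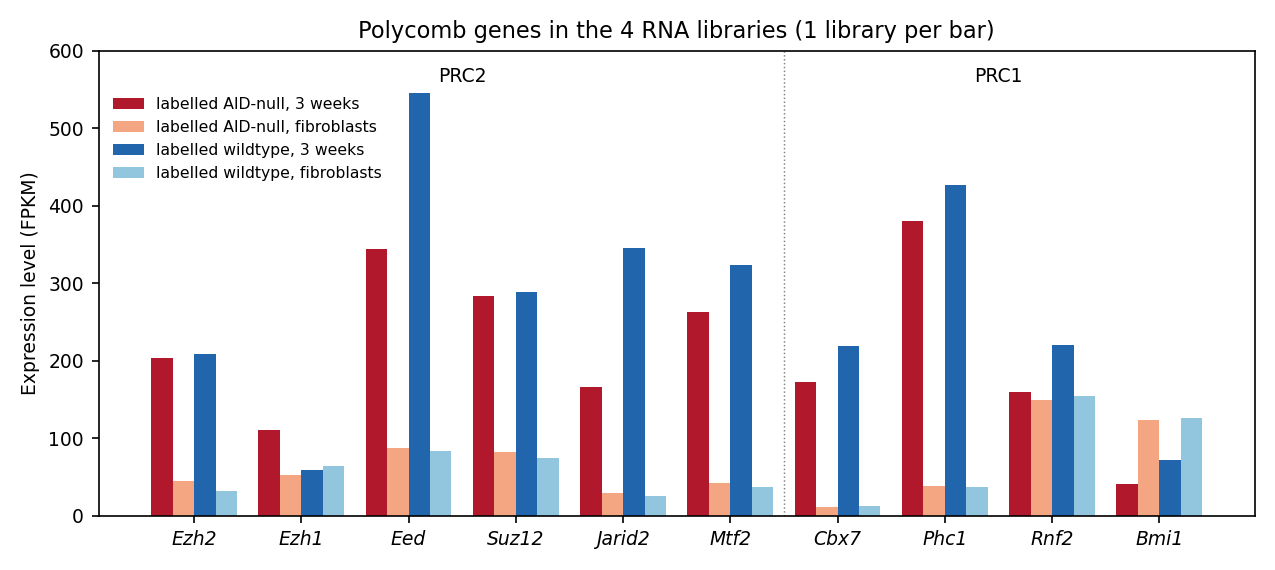
Expression level in FPKM of each of the 10 Polycomb genes, with 1 bar per RNA library and no replicates. Cbx7 and Phc1 are low in both fibroblast libraries and high in both 3-week libraries, Rnf2 is alike in level across the AID-null-labelled pair, and Bmi1 is lower at 3 weeks.

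The catalytic subunits of PRC2 differed from each other. Ezh2, the main H3K27 methyltransferase of dividing cells, was listed at 204 FPKM at 3 weeks and 44.5 FPKM in fibroblasts under the AID-null label. Under the wildtype label it was listed at 208 FPKM at 3 weeks and 32.2 FPKM in fibroblasts. Both 3-week libraries thus lay above both fibroblast libraries, with log2(FPKM + 1) differences of 2.17 and 2.66 under the AID-null and wildtype labels. Ezh1, its paralog with weaker methyltransferase activity, common in non-dividing cells, was listed at 110 FPKM at 3 weeks and 52.1 FPKM in fibroblasts labelled AID-null. In libraries labelled wildtype Ezh1 was at 58.7 FPKM at 3 weeks and 64.7 FPKM in fibroblasts. Only the AID-null-labelled 3-week library stood out for Ezh1, with a difference from its fibroblasts of 1.06 against -0.14 under the wildtype label. Ezh2 made up 64.9% of the summed Ezh1 and Ezh2 FPKM at 3 weeks and 46.0% in fibroblasts under the AID-null label, and 78.0% and 33.2% under the wildtype label.

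Eed and Suz12, the other core subunits of PRC2 among the members, were at least 2-fold higher at 3 weeks under both labels. Eed, which binds trimethylated H3K27 and stimulates the enzyme, was listed at 345 FPKM at 3 weeks and 87.1 FPKM in fibroblasts labelled AID-null, and at 546 and 83.5 FPKM under the wildtype label. Suz12, the scaffold that holds the complex together, was listed at 284 FPKM at 3 weeks and 82.7 FPKM in fibroblasts labelled AID-null, and at 289 and 74.6 FPKM under the wildtype label. Eed therefore stood above Suz12 by a ratio of 1.21 in the AID-null-labelled and 1.89 in the wildtype-labelled 3-week library, where the fibroblast ratios were 1.05 and 1.12.

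The accessory subunits of PRC2 in the set had larger differences than the core. Jarid2, which brings PRC2 to target sites and binds nucleosomes, was listed at 166 FPKM at 3 weeks and 29.0 FPKM in fibroblasts labelled AID-null, and at 345 and 25.4 FPKM under the wildtype label. Mtf2, a Polycomb-like protein that binds unmethylated CpG-rich DNA, was listed at 263 FPKM at 3 weeks and 41.9 FPKM in fibroblasts labelled AID-null, and at 324 and 37.3 FPKM under the wildtype label. The log2 differences were 2.47 for Jarid2 and 2.62 for Mtf2 under the AID-null label, and 3.72 and 3.08 under the wildtype label. Mtf2 made up 75.9% of the summed FPKM of the Polycomb-like genes Phf1, Mtf2 and Phf19 at 3 weeks and 44.4% in fibroblasts labelled AID-null, and 84.8% and 35.9% under the wildtype label.

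The PRC1 members ran from the highest differences of the set to the only ones below 0 in both pairs of libraries. Cbx7, a chromodomain protein that reads trimethylated H3K27 in embryonic stem cells, was listed at 172 FPKM at 3 weeks and 11.1 FPKM in fibroblasts labelled AID-null, and at 219 and 13.0 FPKM under the wildtype label. The ratio of 3 weeks to fibroblasts was 15.6 under the AID-null and 16.8 under the wildtype label, the highest of the 10 genes under both. Phc1, a Polyhomeotic protein whose SAM domain links PRC1 complexes, was listed at 381 FPKM at 3 weeks and 38.8 FPKM in fibroblasts labelled AID-null, and at 426 and 36.8 FPKM under the wildtype label. Among genes with at least 1 FPKM, Cbx7 stood at the 85.8th and 87.4th percentile of level in the AID-null-labelled and wildtype-labelled 3-week libraries, and at the 20.5th and 23.0th in the fibroblasts with those labels.

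Rnf2, the RING finger ubiquitin ligase also called Ring1b, was listed at 159 FPKM at 3 weeks and 150 FPKM in fibroblasts labelled AID-null, and at 220 and 154 FPKM under the wildtype label, which kept it under a 2-fold difference in both. Bmi1, a PCGF partner of the ligase that represses the Ink4 locus, was listed at 41.3 FPKM at 3 weeks and 123 FPKM in fibroblasts labelled AID-null, and at 71.8 and 126 FPKM under the wildtype label. Bmi1 was the one member below its fibroblasts by at least 2-fold, under the AID-null label, with a log2 difference of -1.55 against -0.81 under the wildtype label.

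**Figure D2:**
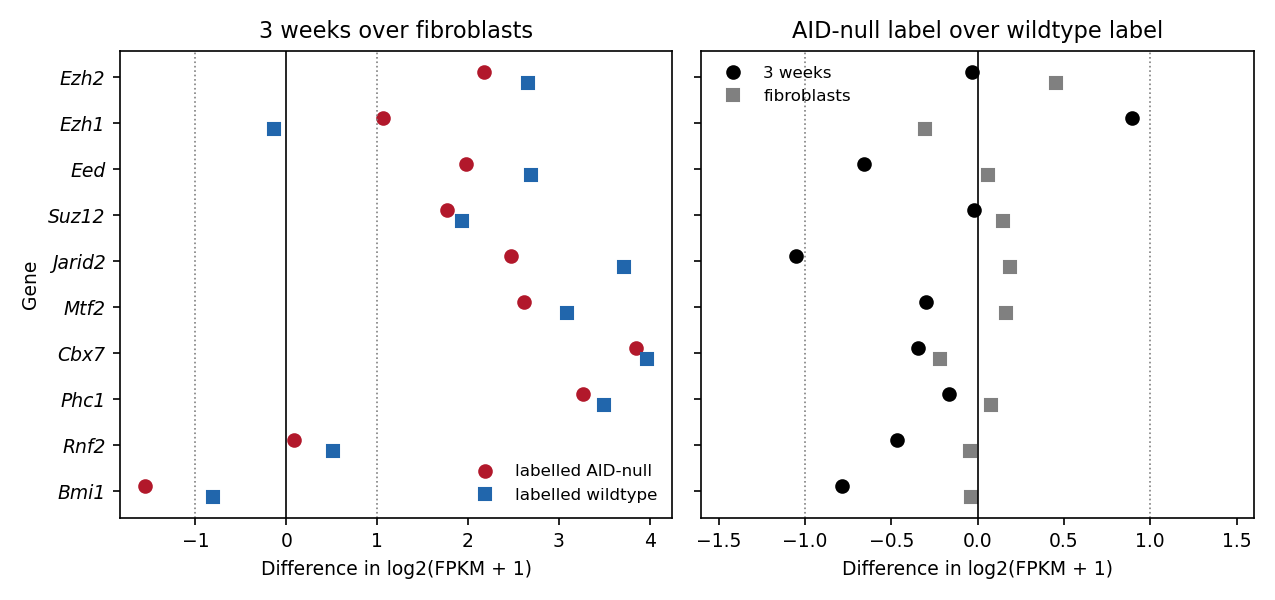
Difference in log2(FPKM + 1) of each member, on the left for 3 weeks minus fibroblasts under each label and on the right for the AID-null minus the wildtype label at each stage. Ezh2, Eed, Suz12, Jarid2, Mtf2, Phc1 and Cbx7 lie above 1 in both pairs on the left, while on the right Jarid2 at 3 weeks is at -1.05 and Ezh1 at 0.90.

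Shares within gene families, chosen after their values were seen, showed another leading paralog at 3 weeks than in fibroblasts for the Cbx and Phc genes under both labels. Cbx7 held 62.5% of the summed FPKM of the Cbx2, Cbx6, Cbx7 and Cbx8 genes at 3 weeks and 6.77% in fibroblasts labelled AID-null, and 57.3% and 6.41% under the wildtype label. Cbx6 held 26.4% and 74.2% of that sum under the AID-null label, and 33.0% and 76.7% under the wildtype label. Phc1 held 78.9% of the Phc sum at 3 weeks and 13.5% in fibroblasts labelled AID-null, and 74.1% and 13.7% under the wildtype label. Bmi1 held 10.3% of the Pcgf sum at 3 weeks and 30.1% in fibroblasts labelled AID-null, and 13.4% and 28.3% under the wildtype label. Pcgf3 led the Pcgf sum in both libraries labelled AID-null, where it held 37.8% in fibroblasts and lay just above the 24.7% of Pcgf2 at 3 weeks. Pcgf6 held 17.8% of that sum in the AID-null-labelled and 31.6% in the wildtype-labelled 3-week library, and Pcgf5 held 18.7% and 6.79%.

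**Figure D3:**
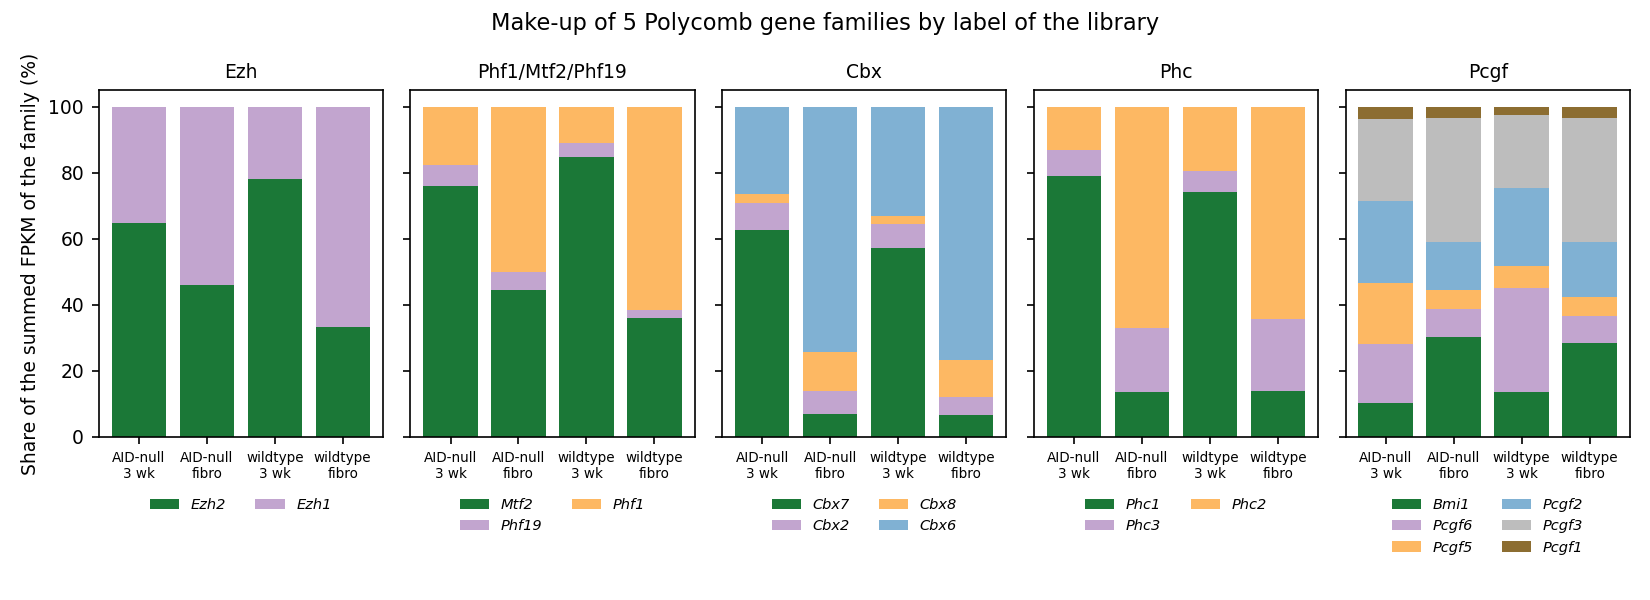
Percent of the summed FPKM of each of 5 Polycomb gene families held by each gene, with 1 stacked bar per RNA library. Cbx7 and Phc1 take the larger part of their families in both 3-week libraries, and Cbx6 and Phc2 in both fibroblast libraries.

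Between the labels, fibroblasts differed little, in these genes as in most genes. Of 10 members 0 were higher and 0 lower by at least 2-fold in AID-null-labelled against wildtype-labelled fibroblasts, where 4.26% of 13788 genes were higher and 1.34% lower. The median was 0.07, against -0.03 for all genes. Ezh2 had the largest difference in size, at 0.45.

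At 3 weeks 0 members were at least 2-fold higher in the AID-null-labelled library, where 9.76% of 15204 genes were, and 1 was lower, where 11.5% were. Jarid2 was that member, with a log2 difference of -1.05. The median of the members was -0.32, against -0.18 for all genes. Ezh1 differed by 0.90, Bmi1 by -0.78 and Eed by -0.66. Of all genes past 2-fold 45.8% were higher, and this share was 60.5% after upper-quartile and 61.6% after median-of-ratios scaling, which moved the median of all genes to 0.00 and 0.02. With those scalings Jarid2 was at -0.86 and -0.85 and no longer past 2-fold, Ezh1 was at 1.08 and 1.10 and past it, and Ezh2, Suz12 and Phc1, at -0.03, -0.02 and -0.16 without scaling, lay above 0. The calls of Jarid2 and Ezh1 between labels at 3 weeks therefore changed with the scaling, while both kept their direction.

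The step between fibroblasts and 3 weeks differed by at least 1 on the log2 scale between the labels for Ezh1, by 1.20, and Jarid2, by -1.24. Over all 15624 genes compared, 9.68% had such a difference in the AID-null direction and 13.9% in the wildtype direction. The median of the members was -0.44, against -0.18 for all genes, and this difference was not tested.

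Cell type markers moved with these results, and their part in them was not tested. The 10 fibroblast markers summed to 10426 FPKM at 3 weeks and 79125 FPKM in fibroblasts labelled AID-null, and to 2483 and 68354 FPKM under the wildtype label, with none at 0. Col1a1 and Col1a2 held most of both fibroblast sums. Under the wildtype label 10 markers were at least 2-fold lower at 3 weeks, and under the AID-null label 7, where 17.7% and 17.6% of all genes were. The 3 others were Thy1, Dcn and Pdgfra, which was listed at 283 FPKM at 3 weeks and 203 FPKM in fibroblasts labelled AID-null. Of these 10 markers 9 stood at least 2-fold above the wildtype-labelled in the AID-null-labelled 3-week library. The 7 proliferation genes summed to 1999 and 420 FPKM at 3 weeks and in fibroblasts under the AID-null label, and to 2322 and 239 FPKM under the wildtype label. Macrophage markers summed to 527 FPKM at 3 weeks and 1357 FPKM in fibroblasts labelled AID-null, and to 383 and 404 FPKM in those labelled wildtype, where 5 of the 10 (Ptprc, Tyrobp, C1qa, C1qb and C1qc) were at 0 at 3 weeks. The wildtype-labelled 3-week sum was mostly Laptm5, at 265 FPKM, and Cd68, at 112 FPKM, while the other 8 markers were at least 2-fold lower than in fibroblasts. The same 8 were at least 2-fold higher in the AID-null-labelled than in the wildtype-labelled 3-week library. Keratinocyte markers summed to 7.51 FPKM at 3 weeks and 17.4 FPKM in fibroblasts labelled AID-null, and to 157 and 19.4 FPKM in those labelled wildtype. These markers did not move together. Trp63 held most of the fibroblast sums, at 12.6 and 10.6 FPKM under the AID-null and wildtype labels, and was at 0.34 and 0 FPKM at 3 weeks. Krt14 was at least 2-fold higher at 3 weeks under both labels, at 1.74 against 0 FPKM under the AID-null label, near the filter of 1 FPKM. Under the wildtype label it was at 17.6 against 1.62 FPKM. Krt6b, at 96.2 FPKM, and Krt6a, at 33.3 FPKM, held most of the wildtype-labelled 3-week sum. Mylpf held most of the skeletal muscle sums at 3 weeks, at 95.4 FPKM in the AID-null-labelled and 188 FPKM in the wildtype-labelled library, while Acta1 was at least 2-fold lower there than in fibroblasts under both labels, as were Myog and Actc1 in the AID-null-labelled pair. Skeletal muscle markers summed to 98.3 FPKM at 3 weeks and 32.9 FPKM in fibroblasts labelled AID-null, and to 192 and 11.7 FPKM in those labelled wildtype, with Myod1 at 0 in every library.

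Of 37 further genes on the list, 7 of 36 compared were at least 2-fold higher and 3 lower at 3 weeks in the AID-null-labelled pair, where 21.3% and 17.6% of all genes were. In the wildtype-labelled pair 12 of 37 were higher and 3 lower, where 27.0% and 17.7% of all genes were. Nothing about the list is read from these counts. Higher under both were Phf19, a Polycomb-like subunit, Epop, which binds PRC2 and elongin, Ezhip, an inhibitor of PRC2, Pcgf6 and L3mbtl2, both subunits of a variant PRC1. Epop was listed at 106 FPKM at 3 weeks and 12.4 FPKM in fibroblasts labelled AID-null, and at 661 and 11.8 FPKM under the wildtype label, while Ezhip was listed at 1.48 and 4.45 FPKM in the AID-null-labelled and wildtype-labelled 3-week libraries and at 0 in both fibroblast libraries. L3mbtl2 was listed at 142 FPKM at 3 weeks and 27.5 FPKM in fibroblasts labelled AID-null, and at 271 and 27.6 FPKM under the wildtype label. Lower under both were Cbx8, at log2 differences of -1.21 and -1.24, and Auts2, a subunit of a variant PRC1 linked to gene activation, at -1.18 and -1.14, under the AID-null and wildtype labels.

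Between labels at 3 weeks 2 of these 37 genes were past 2-fold on the higher side in the AID-null-labelled library and 5 on the lower, where 9.76% and 11.5% of all genes were. Pcgf5, a PCGF subunit, was listed at 74.9 FPKM in the AID-null-labelled and 36.3 FPKM in the wildtype-labelled library, and Scml2 at 13.7 and 5.70 FPKM. Lower were Epop, Ezhip, Pcgf6, Rybp and Kdm6a. With upper-quartile scaling 4 were lower, without Rybp, and with median-of-ratios scaling 3, without Rybp and Ezhip. Of all genes 1228 of 15186 and 1198 of 15202 were lower with those scalings. Pcgf6 was listed at 71.3 FPKM under the AID-null and 169 FPKM under the wildtype label, and Rybp, which joins variant PRC1, at 71.1 and 155 FPKM. Kdm6a, an H3K27 demethylase, was listed at 50.01 FPKM under the AID-null and 156 FPKM under the wildtype label. Scml2, Ezhip and Kdm6a lie on the X chromosome, for which the libraries also differ. In fibroblasts 0 of 35 genes differed 2-fold in either direction, where 4.26% of all genes were higher and 1.34% lower.

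**Figure D4:**
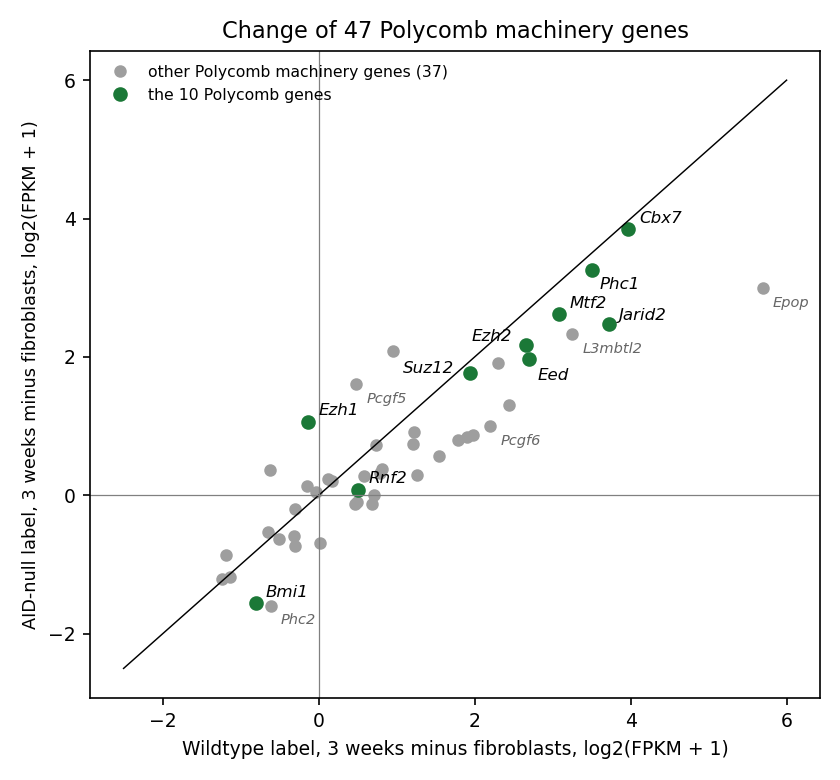
Difference in log2(FPKM + 1) of 3 weeks minus fibroblasts for 47 Polycomb machinery genes, wildtype label on the x axis and AID-null label on the y axis, with the line of equal difference. Cbx7 and Phc1 lie near the line, and Epop, at 5.69 on the x axis and 3.00 on the y axis, lies far below it.

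Genes that Polycomb represses were read as well. Of the Ink4 locus genes, which encode cell cycle inhibitors, Cdkn2a was listed at 381 FPKM at 3 weeks and 241 FPKM in fibroblasts labelled AID-null, and at 307 and 381 FPKM under the wildtype label. Cdkn2b was listed at 159 FPKM at 3 weeks and 338 FPKM in fibroblasts labelled AID-null, and at 169 and 396 FPKM in those labelled wildtype, and was thus lower at 3 weeks in both. Of 19 developmental regulators listed as classic targets, many reached 1 FPKM in a 3-week library alone, so that the filter favours higher calls and no count is given. Gata4, a regulator of heart and endoderm, was listed at 18.7 FPKM at 3 weeks and 0.57 FPKM in fibroblasts labelled AID-null, and at 17.0 and 0 FPKM under the wildtype label. Eomes, a regulator of mesoderm and trophoblast, was listed at 9.86 and 10.1 FPKM in the AID-null-labelled and wildtype-labelled 3-week libraries. It was at 0 in both fibroblast libraries. Gata6, Sox17, Foxa2 and Hand1 were past 2-fold on the higher side under both labels as well. Pax6, Nkx2-5 and T were past it under the wildtype label only, at 1.3, 1.09 and 1.22 FPKM at 3 weeks. These values lie just above the filter of 1 FPKM, and the 3 genes were at 0 in every other library. Msx1 went the other way, with log2 differences of -2.85 under the AID-null and -1.65 under the wildtype label. Pax9 also lay below its fibroblasts, at -0.77 and -1.56 under those labels. Nkx2-2, Cdx2, Neurog1, Neurog2 and Olig2 were at 0 in every library.

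Of H3K4 methyltransferase complexes, whose Trithorax group proteins oppose Polycomb, 10 of 12 listed genes were found. At 3 weeks 3 of these (Wdr5, Ash2l and Dpy30) were past 2-fold on the higher side under the AID-null label, 4 under the wildtype label (those and Setd1a) and 0 were lower under either, where 21.3% and 27.0% of all genes were higher under the AID-null and wildtype labels. Ash2l was also among the 3 genes nearest to Eed in pattern over the 4 libraries, out of 15624, at a Euclidean distance of 0.09 between centred log2(FPKM + 1) profiles, and Wdr5 among those nearest to Suz12, at 0.10. For other members the list of 3 held Tfrc for Ezh2 at 0.16, Dbf4 for Jarid2 at 0.18, Tbx3 for Cbx7 at 0.14, Akt1 for Bmi1 at 0.05 and Zfp706 for Rnf2 at 0.01. With 4 points such likeness describes these libraries and nothing more.

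DNA methylation at the promoters was read by placing each promoter sequence among the deposited CpG positions from the spacing of its CpGs, since the positions are in build mm9 and the sequences in GRCm38.p6. Of 32851 promoter sequences 15982 had at least 8 CpGs and 10705 were placed uniquely, against 118 when the spacing was mirrored. Of 12 member promoters 9 were placed, for 8 of 10 members, with 12 to 33 CpGs matched each. Eed, Phc1 and the second Mtf2 promoter were not placed and were not analysed here. The Ezh1 promoter was placed but had no CpG position with enough reads in both fibroblast libraries and 4 clones, so it entered no comparison.

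The member promoters were nearly free of methylation at every stage. All 8 member promoters with at least 3 CpG positions in each of the 10 libraries were under 1% in all 10, where 6299 of 9715 promoters (64.8%) were. The highest value was 0.876%, of Ezh2 in wildtype clone 3, and no upper 95% Wilson bound of these promoters lay above 1.72%. A read over several CpGs was counted at each, so these bounds are too low. The Cbx7 promoter shown above was methylated at 0.443% and 0.626% in AID-null-labelled and wildtype-labelled fibroblasts and at 0.0718% and 0.0885% at 3 weeks. The Bmi1 promoter was at 0.0324% and 0.359% in those fibroblasts and at 0.0312% and 0.0431% at 3 weeks. Cbx7, whose RNA was higher at 3 weeks, and Bmi1, whose RNA was lower there, were thus both under 1% before and after. The motif TTTNNCGC, a form of the E2F site, searched on both strands, occurred in 2 of 12 member promoters (16.7%), those of Ezh2 and Suz12, and in 5.17% of all 32851. The motif holds a CpG, and these shares were not matched for CpG content. The Ezh2 and Suz12 promoters hold 31 and 41 CpGs, where the median of all promoters is 7.

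Between AID-null-labelled and wildtype-labelled clones 0 of 8 member promoters were called by the quasi-binomial model at an adjusted p under 0.05 and at least 10 percentage points, where 0.0204% of 9784 promoters were called lower and 0% higher. Since these promoters were under 1% in every clone, a call at 10 points could not occur. At an unadjusted p under 0.05 there were 0 of 8 member promoters and 1041 of all promoters, and limma called 0 of both. The member with the largest difference, the second Jarid2 promoter, averaged 0.162% ± 0.245 in AID-null clones and 0.0486% ± 0.0842 in wildtype clones (SD, n = 3 each), a difference of 0.113 points with an adjusted p of 0.81 by the quasi-binomial model. The flanks, from 2000 bases upstream to 2000 bases downstream, gave 0 calls among 6 upstream and 9 downstream member regions, where 0.035% of 5714 upstream flanks were called lower and 0% higher, and 0.0528% of 9469 downstream flanks were called lower and 0.0106% higher. These member flanks averaged at most 0.511% in either set of clones, upstream of Cbx7 in wildtype clones, so a call at 10 points could not occur there either. At an unadjusted p under 0.05 there were 0 of these member flanks, against 868 of all upstream and 1481 of all downstream flanks, and limma called 0.

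Methylation in fibroblasts lay further upstream of Jarid2 and Cbx7, and at the 1 CpG position read there upstream of Ezh1. At 6 CpGs from 1456 to 1253 bases upstream of the Jarid2 start shown above, 46.7% (95% Wilson interval 43.6 to 49.8) of reads were methylated in AID-null-labelled and 62.2% (58.9 to 65.5) in wildtype-labelled fibroblasts. At 3 weeks the share was 15.8% (14.0 to 17.8) under the AID-null and 9.34% (8.20 to 10.6) under the wildtype label, and in clones 1.94% to 4.81% and 2.04% to 4.49%. All 6 clones thus lay under both 3-week cultures, and those under both fibroblast cultures. The Ezh1 upstream flank, with 1 position per library but 5 in wildtype clones 2 and 3, had no such order. It was methylated at 54.7% and 85.2% in AID-null-labelled and wildtype-labelled fibroblasts and at 48.2% and 51.9% at 3 weeks. AID-null clones ran from 28.8% to 64.2% and wildtype clones from 19.0% to 80.3%.

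At 3 CpGs from 1898 to 1858 bases upstream of Cbx7 the share was 33.3% and 33.0% in AID-null-labelled and wildtype-labelled fibroblasts, 1.49% (0.509 to 4.30) and 15.6% (9.50 to 24.4) at 3 weeks, and 0.713% to 1.65% and 0% to 1.40% in clones. The 0% was of wildtype clone 1, with 0 of 353 reads summed over the 3 CpGs, which had 118, 118 and 117. Its upper Wilson bound was 1.08%. The 3 CpGs did not all move alike under the wildtype label. The CpG at 1898 bases was at 7.95% in wildtype-labelled fibroblasts and at 23.3% at 3 weeks, with 7 of 30 reads. Under the AID-null label this CpG was at 6.25% in fibroblasts and 0% at 3 weeks. The CpGs at 1862 and 1858 bases were lower at 3 weeks under both labels. The wildtype-labelled 3-week library had only 30 reads at each of the 3 CpGs. In the Jarid2 and Cbx7 sets a read over several CpGs was counted at each, so these intervals are too narrow. Both sets of CpGs were picked after their values were seen, so no test is given. Over the whole upstream flank Cbx7 was at 15.6% and 13.2% in the fibroblasts labelled AID-null and wildtype, and at 4.49% and 3.02% at 3 weeks. The differences of -11.1 and -10.2 points made Cbx7 the 1 of 6 member flanks lower by at least 10 points, which 11.8% and 15.8% of all upstream flanks were under the AID-null and wildtype labels.

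**Figure D5:**
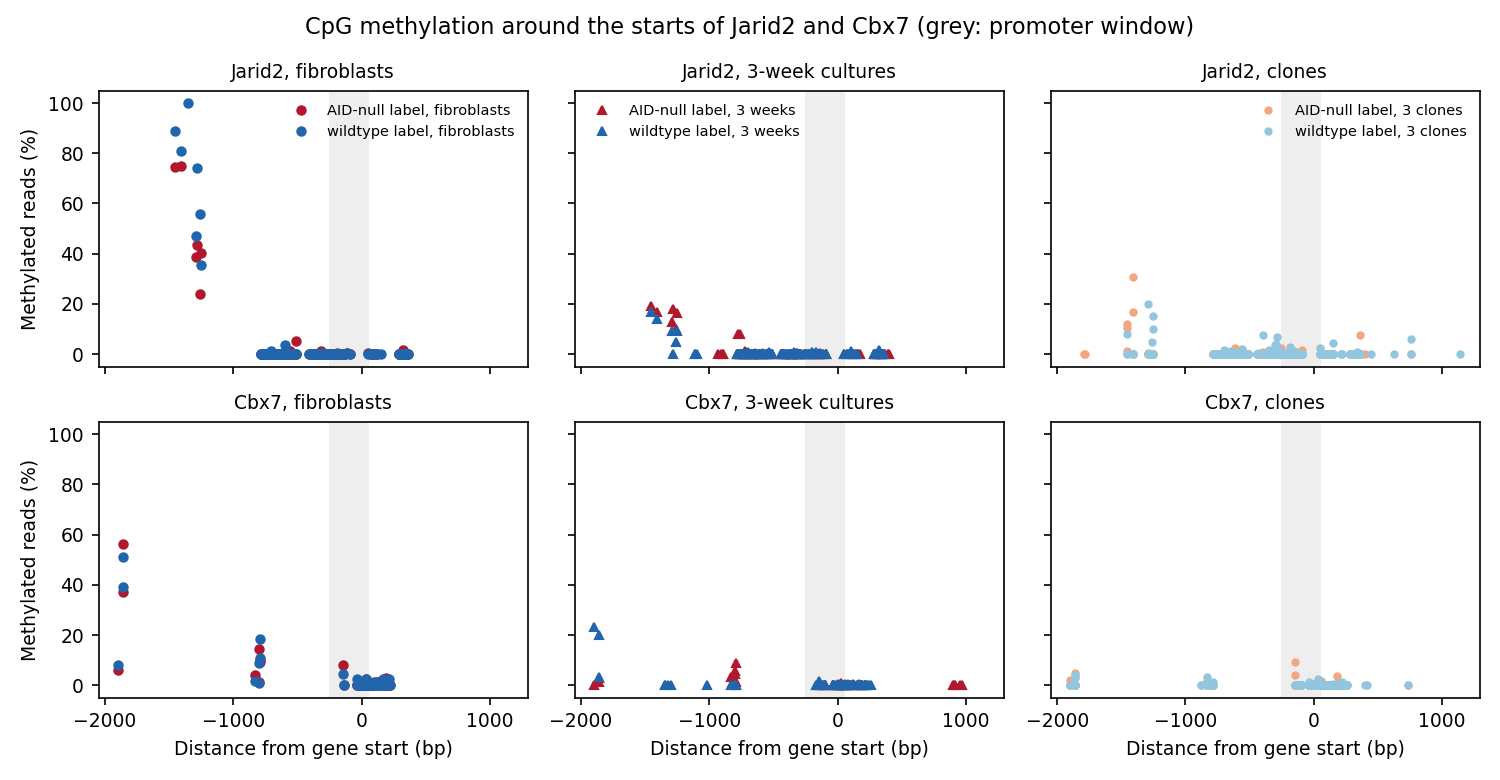
Percent of methylated reads at CpG positions around the starts of Jarid2 and Cbx7, against distance from the start in bases, by library. Methylated positions lie upstream of the shaded promoter window in fibroblasts, at up to 62.2% over the Jarid2 set, and clones reach at most 4.81% when the positions of a set are pooled, with single positions above that.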

How the data were processed

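Paired 75-base RNA reads and single 51-base RRBS reads were sequenced, per the labels' protocols. TopHat, Cufflinks, Bismark, methylKit and build mm9 are named in the submitters' processing notes. Versions of these tools are not given in the sources used here, nor is an annotation. The deposited RNA files hold FPKM per gene as normalised by the authors. Low values shared no step between libraries (at most 5.43% of low genes at 1 ratio), so RNA depth stays unknown and no count test was run. The deposited RRBS files give, per the file headers, coverage as a read count for each CpG and the percent of reads methylated, at a coverage of at least 10. The libraries held 1659832 to 2154007 positions, at a median coverage of 82 to 125. Coverage summed over positions was 222945430 to 296572452, where a read counts at each CpG it covers, so numbers of reads are not known. Intervals cover counting error only, and those pooled over CpGs are too narrow, since 1 read can be counted at several CpGs.

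Groups came from sample titles. FPKM was compared as log2(FPKM + 1), which understates the change of low genes. For named genes the rule was all 10 members, and list genes past 2-fold in both pairs of libraries or between labels. Epop and Ezhip are in the files under older symbols. Promoters were placed uniquely by CpG spacing (at least 8 matched CpGs and no unmatched covered CpG), positions over the 99.9th percentile of coverage were left out, and at least 3 positions were required in each clone. The quasi-binomial model added 0.5 reads and moderated the dispersion with limma 3.58.1 in R 4.3.3, after a check on simulated data, with Benjamini-Hochberg adjustment over all promoters. Alternatives were the pseudocount, the filter, the scaling, the fold, the coverage, the number of positions, limma, the clone number as a block and leaving out each clone. The members and lists were chosen with earlier results of these data known. The placement rule, the flanks, the 10-point description of single libraries, the motif, the family shares and the CpG sets upstream of Jarid2 and Cbx7 were chosen after values had been seen. Some genes are not reported here. Python 3.11.15 was used.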

Additional observations from a re-analysis of the deposited data

Results flagged for a closer look

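Several genes lay above their fibroblasts at 3 weeks under 1 label and below them under the other, with 1 library per group, and none of these differences was tested. The difference of the log2(FPKM + 1) steps, AID-null minus wildtype label, was 1.20 for Ezh1. It was 0.98 for Phf1, a Polycomb-like subunit, and 0.97 for Cdkn2a. It was 0.28 for Pcgf1 and 0.08 for Kdm6b. It was -0.81 for Bcor, -0.71 for E2f6, -0.59 for Bap1 and -0.60 for Asxl2. In Kdm6b and Pcgf1 the steps lay close to 0 under both labels.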

How the results depend on the processing

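Each RNA group had 1 library of unknown depth, and promoters of Eed, Phc1 and Ezh1 entered no methylation comparison. The counts of members past 2-fold at 3 weeks against fibroblasts kept their values with another pseudocount (0.1), no filter or another scaling. Of the 37 further machinery genes 3 in place of 5 were lower between labels at 3 weeks with median-of-ratios scaling and 15 with 1.5-fold, an alternative chosen after seeing the data. With 1.5-fold these genes counted 13 higher and 8 lower at 3 weeks for the AID-null label and 19 and 6 for the wildtype label. Of all genes 4502 were higher and 4499 lower of 15076 at 1.5-fold under the AID-null label, and 5564 and 4113 of 15196 under the wildtype label. With 1.5-fold 1 member (Bmi1) was lower under the wildtype label. Between labels at 3 weeks, 1 member (Ezh1) was higher with upper-quartile scaling, with median-of-ratios scaling and with 1.5-fold. There 0 members were lower with either scaling, and 3 (Eed, Jarid2 and Bmi1) with 1.5-fold. Of all 15204 genes 2635 were higher and 4141 lower between labels at 3 weeks with 1.5-fold. With upper-quartile scaling 1879 of 15186 were higher and 1228 lower, and with median-of-ratios scaling 1918 and 1198 of 15202. No direction reversed among called values. Of 40 member differences 3 that were not called changed sign with each scaling.

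With the clone number as a replicate block 0 member promoters were called, as without it, and 5 of all promoters against 2. Same-numbered clones shared only a number, with correlations of their deviations of 0.016, -0.002 and 0.018. Member promoters called stayed at 0 with a coverage of 20, with 5 positions, with limma and without each clone in turn, which says nothing of stability, since promoters under 1% cannot differ by 10 points. Over all promoters limma called 0, and leaving out 1 clone gave 0 to 61, the 61 without AID-null clone 3. It gave 0 without AID-null clone 1, wildtype clone 2 or wildtype clone 3, and 1 without AID-null clone 2.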
